A study of Mus musculus with 2 samples.

Results

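Immediate early genes were examined as 10 members, Ier2, Egr1, Fos, Fosl2, Jun, Junb, Atf3, Nr4a1, Nr4a2 and Nr4a3, in deposited lists of unique ATAC-seq peaks from 2 mouse libraries. A peak was taken as belonging to the set when its centre lay in a member's RefSeq span or within 50 kb of it, which selected 22 of 22485 peaks. Of these, 14 came from the 14483 peaks of the CD137+ library and 8 from the 8002 peaks of the PDGFRα+ library. The libraries represent adipocyte progenitors of C57BL/6 mice, selected with magnetic beads for CD137 (the Tnfrsf9 protein) or for the receptor PDGFRα. Per the labels' protocols, the cells came from SAT or VAT, without saying which depot gave which cells, and were cultured, put through an adipogenic cocktail and given the glucocorticoid dexamethasone at 1 µM. The extraction protocol in the labels speaks of embryos instead of fat. Both groups carry the drug and no untreated library was analysed here, so no value measures its effect. Each group has 1 library, which leaves every difference without replicates, and no p-value is given. The lists give positions and a place class but no peak height or read number, and the depth is unknown. The intervals below are exact 95% binomial (Clopper-Pearson) intervals and cover counting error only.

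Immediate early genes are switched on within minutes of a signal without the need for new protein, largely through serum response factor and CREB, which are already present on their promoters. FOS, FOSL2, JUN, JUNB and ATF3 are leucine zipper proteins that pair into AP-1 and related dimers, EGR1 is a zinc finger factor, and NR4A1, NR4A2 and NR4A3 are orphan nuclear receptors induced by cAMP. The cocktails used to start fat cell formation are known to induce several of them, the glucocorticoid receptor is known to hold back AP-1, and cell isolation from tissue is known to raise their transcripts.

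The promoters of Jun and Nr4a1 lay inside unique CD137 peaks, and those of Fos, Nr4a2 and Nr4a3 lay in no unique peak of either library. Their 250 bases before the RefSeq start (GRCm38.p6, which is mm10, 5′ to 3′ on the gene's strand) are shown so that the sequence under the wide peaks can be set beside that of members without one. Capitals mark matches, on either strand, to TGACG, the core of the cAMP response element bound by CREB, or to TGACATCA, a variant of the AP-1 element.
Jun, chr4:95052223-95052472, minus strand: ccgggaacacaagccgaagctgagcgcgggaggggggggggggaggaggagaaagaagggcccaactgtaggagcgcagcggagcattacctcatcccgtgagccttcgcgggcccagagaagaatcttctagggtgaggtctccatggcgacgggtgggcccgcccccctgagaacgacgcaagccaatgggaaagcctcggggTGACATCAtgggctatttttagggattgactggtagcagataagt
Nr4a1, chr15:101266596-101266845, plus strand: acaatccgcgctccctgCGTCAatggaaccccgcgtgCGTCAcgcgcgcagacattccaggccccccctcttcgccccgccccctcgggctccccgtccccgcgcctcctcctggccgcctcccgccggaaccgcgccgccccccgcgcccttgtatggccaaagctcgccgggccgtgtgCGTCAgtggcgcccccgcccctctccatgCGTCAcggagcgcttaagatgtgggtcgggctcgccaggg
Nr4a2, chr2:57124004-57124253, minus strand: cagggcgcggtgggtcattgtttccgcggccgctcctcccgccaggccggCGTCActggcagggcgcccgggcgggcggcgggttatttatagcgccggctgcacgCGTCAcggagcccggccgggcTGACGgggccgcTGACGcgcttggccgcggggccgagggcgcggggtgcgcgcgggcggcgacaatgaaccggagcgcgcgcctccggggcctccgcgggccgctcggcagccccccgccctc
Nr4a3, chr4:48045055-48045304, plus strand: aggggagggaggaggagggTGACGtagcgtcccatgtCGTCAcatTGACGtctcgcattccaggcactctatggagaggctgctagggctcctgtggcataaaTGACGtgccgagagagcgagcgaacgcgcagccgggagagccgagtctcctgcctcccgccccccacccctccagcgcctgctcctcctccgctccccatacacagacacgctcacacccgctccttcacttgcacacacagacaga
Fos, chr12:85473640-85473889, plus strand: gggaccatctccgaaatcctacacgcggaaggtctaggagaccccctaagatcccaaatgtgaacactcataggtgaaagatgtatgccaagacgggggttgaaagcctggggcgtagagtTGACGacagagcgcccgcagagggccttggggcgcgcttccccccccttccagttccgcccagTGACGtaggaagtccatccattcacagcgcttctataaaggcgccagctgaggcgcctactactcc

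TGACG was found in 6 of the 8 member promoters that have a sequence in the table used here, and in 20.3% of 17492 protein-coding promoters of the same length. Nr4a1, Nr4a2 and Nr4a3 had 4 matches each, Fos had 2, Junb and Atf3 had 1, and Jun and Fosl2 had none. In Fos the match nearest to the start began 66 bases upstream, in Nr4a1 it began 40 bases upstream and in Atf3 it began 7 bases upstream. TGACATCA was found in Jun alone among the 8, beginning 45 bases upstream, and in 2.92% of all promoters. The complete element TGACGTCA (2.01% of all promoters), the AP-1 element TGANTCA (6.22%) and the NR4A element AAAGGTCA (1.13%) were in none of the 8. Nor were the CArG box of serum response factor (1.39%) and AGAACA of the glucocorticoid receptor (13.9%). Ier2 and Egr1 had no promoter sequence and were not searched, and bases further upstream of the other members were not searched either. These counts therefore do not show that the members lack such elements. The EGR element GCGNGGGCG was in 3 (Nr4a1, Nr4a2 and Fosl2, against 6.25%), the TEAD element GGAATG in 2 (Nr4a1 and Nr4a3, against 11.6%) and the GC box GGGCGG in 7 (against 42.7%), all searched on both strands. The GC box can overlap the EGR element. The member promoters were rich in G and C, with a median of 64.8% and 21.5 CpG dinucleotides, against 55.2% and 10 over all promoters. TGACG itself holds a CpG, and the part of base composition in these counts was not tested. A match is a stretch of letters and was not measured as a bound site.

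Ier2, Nr4a1 and Jun each had a CD137 peak of more than 5 kb centred in the gene, and no member had a PDGFRα peak as wide there. Over all 21887 protein-coding genes, 0.105% had a CD137 peak of 5 kb or wider centred in or within 5 kb of the gene, and 0.064% had such a PDGFRα peak. The widths at Ier2 and Nr4a1 were known when the genes were chosen, so these counts are a description.

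**Figure D1:**
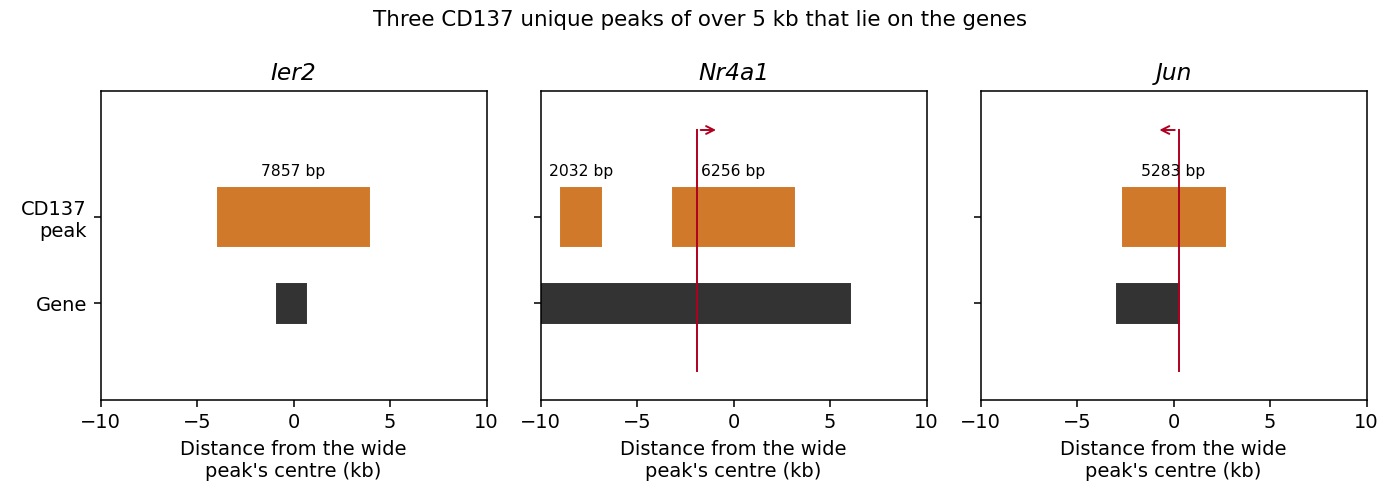
CD137 unique peaks (orange) on the RefSeq spans (dark) of Ier2, Nr4a1 and Jun, against the distance in kb from the centre of the widest peak, with the RefSeq start and its direction in red where known. The peaks of 7857, 6256 and 5283 bp cover all of Ier2, the start of Nr4a1 and nearly all of Jun.

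Ier2, a short gene for a nuclear protein induced by growth factors (chromosome 8, 84661331 to 84662852), was covered whole by the widest of all CD137 peaks. The peak ran from 84658262 to 84666119, a width of 7857 bp, and reached 3069 bp beyond the gene on its lower side and 3267 bp on its upper side. It carried the class up5k, which by its name lies within 5 kb upstream of a gene, and the ID ENSMUSG00000053560. The gene's strand is not in the tables used here. No PDGFRα peak lay within 5 kb of Ier2.

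The window of Ier2 also held 4 other CD137 peaks and 1 PDGFRα peak, all of them nearer to other genes. Below the gene, inside the span of the calcium channel gene Cacna1a, CD137 peaks of 1208 bp (84615120 to 84616328) and 2909 bp (84633999 to 84636908) had the class exon. The PDGFRα peak of 2138 bp (84638243 to 84640381, down5k) lay in Cacna1a too, 1335 bp from the wider of these. This was the closest approach of opposite libraries among the 22 peaks. Above the gene, CD137 peaks of 1761 bp (84685462 to 84687223) and 2911 bp (84697574 to 84700485) had the class up5k. The first was centred where the spans of Nacc1 and Trmt1 overlap and the second in Trmt1, a tRNA methyltransferase gene, with Lyl1 and Nfix also closer to both than Ier2. With 6 peaks, Ier2 had the most of the 10 members, and 3.17% of all protein-coding genes had 6 or more within 50 kb.

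Nr4a1 (chromosome 15, 101253902 to 101274795) had 2 CD137 peaks on the gene. The wider, 6256 bp from 101265625 to 101271881, held the RefSeq start at 101266846 and the promoter shown above, reaching 1221 bp upstream and 5035 bp downstream of it and covering 29.9% of the RefSeq span. By width it had the rank 5 in the CD137 list. The other, 2032 bp from 101259834 to 101261866, was centred 6.00 kb upstream of that start, inside the longer RefSeq span. Both had the class up5k and the ID ENSMUSG00000023034. A further CD137 peak of 1649 bp (101227389 to 101229038, exon) lay 25.7 kb away in the scaffold protein gene Grasp. The PDGFRα library had 1 peak here, and it was in the width range of the CD137 peaks on Jun and Nr4a1. It measured 5339 bp (101291553 to 101296892, down5k), had the rank 10 by width in its list, and lay 19.4 kb beyond Nr4a1 in Smim41, closer to the autophagy gene Atg101 than to Nr4a1.

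Jun (chromosome 4, 95049036 to 95052222) had 1 CD137 peak, of 5283 bp from 95049318 to 95054601, which covered 91.1% of the gene. It reached 2379 bp upstream of the start at 95052222 and 2904 bp into the gene, and so holds the promoter printed above. Its class was up5k, under the ID ENSMUSG00000087366. The same ID was given to a PDGFRα peak of 2245 bp (95100091 to 95102336, exon) centred 49.0 kb from Jun in the RefSeq span of the long noncoding RNA gene Junos. The deposited lists do not pair IDs with names, but the exon class of the peak centred in Junos places this ID at Junos. The class up5k of the CD137 peak on Jun thus appears to refer to Junos, and the peak is counted at Jun by position alone. Another PDGFRα peak of 1076 bp (95032314 to 95033390, down5k) lay 16.2 kb on the other side. Jun thus had a CD137 peak on the gene and PDGFRα peaks at a distance.

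The 2 RefSeq starts found in a unique peak, those of Jun and Nr4a1, were both in CD137 peaks, among 8 members whose start is in the promoter table. Over 17492 protein-coding genes, 2.88% had a start in a CD137 peak and 1.78% in a PDGFRα peak.

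**Figure D2:**
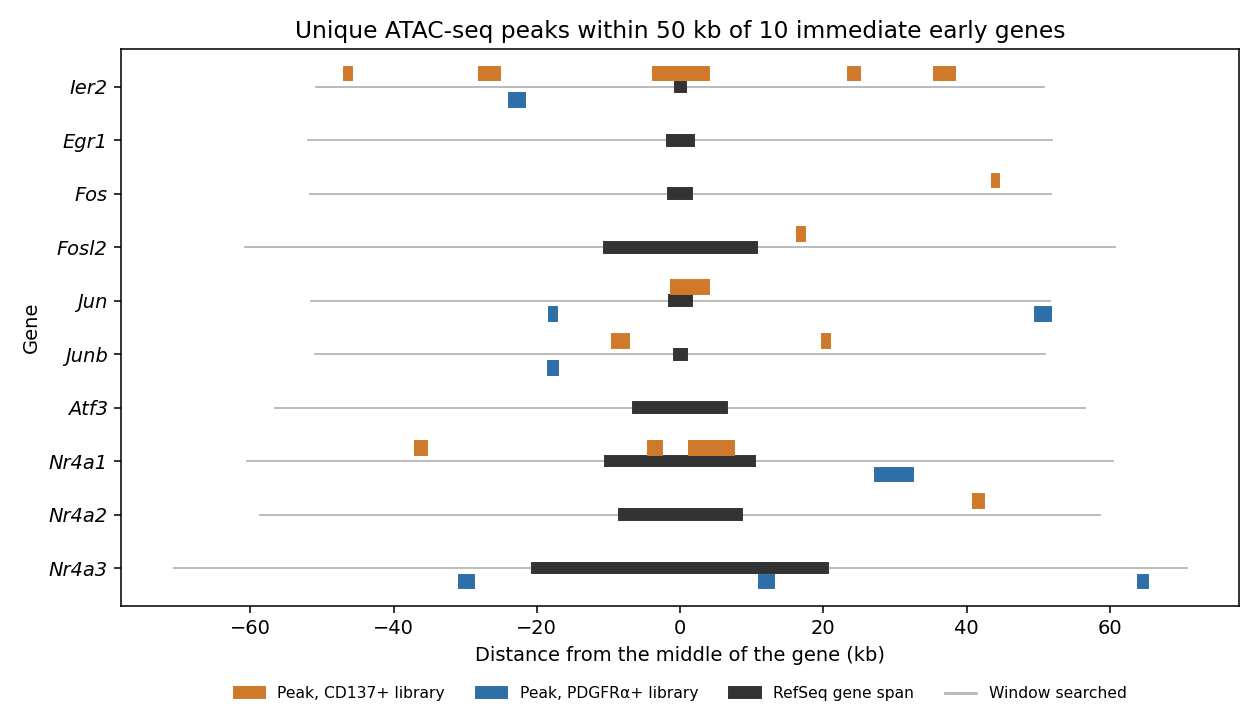
Unique peaks of the CD137+ library (orange, above the line) and the PDGFRα+ library (blue, below it) around each member, with the RefSeq span in dark and the window searched in grey, against the distance in kb from the middle of the gene along the chromosome. CD137 peaks sit on Ier2, Jun and Nr4a1, a PDGFRα peak sits in Nr4a3, and Egr1 and Atf3 have no peak.

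Nr4a3 (chromosome 4, 48045078 to 48086447) showed the opposite library, with 3 PDGFRα peaks and no CD137 peak. A peak of 2070 bp (48076749 to 48078819) lay in an intron under ENSMUSG00000028341, 32.5 kb into the gene from its RefSeq start. A peak of 2106 bp (48034829 to 48036935, intergenic) was centred 9.42 kb upstream of that start, and Nr4a3 was the nearest protein-coding gene. The last, of 1332 bp (48129662 to 48130994), lay in an intron of Stx17, a syntaxin gene. The nearest CD137 peak was 264 kb from the gene. Of the paralogues, Nr4a1 had peaks of both libraries and Nr4a2 (chromosome 2, 57106830 to 57124003) had only a CD137 peak of 1517 bp (57156301 to 57157818, intergenic), 33.1 kb upstream. A protein-coding gene known only by a number lay nearer to that peak than Nr4a2. No PDGFRα peak was nearer to Nr4a2 than 992 kb.

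Junb, Fosl2 and Fos had no peak centred on the gene, and their peaks measured 1024 to 2413 bp. Junb (chromosome 8, 84976909 to 84978748) had a CD137 peak of 2413 bp (84968313 to 84970726, up5k) 7.39 kb away and another of 1139 bp (84997579 to 84998718, exon) 19.4 kb away. Its PDGFRα peak of 1358 bp (84959393 to 84960751, down5k) was 16.8 kb away. The first and the last were centred in the ribonuclease gene Rnaseh2a, with the peroxiredoxin gene Prdx2 also closer, and the second in Hook2. Fosl2 (chromosome 5, 32136472 to 32157840) had 1 CD137 peak of 1112 bp (32163434 to 32164546), 6.15 kb past its end. Fos (chromosome 12, 85473890 to 85477274) had 1 CD137 peak of 1024 bp (85519125 to 85520149), 42.4 kb away. Both peaks were intergenic, and the member was the nearest protein-coding gene. At Fos and Fosl2 the nearest PDGFRα peaks were 125 kb and 80.4 kb away.

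Egr1 (chromosome 18, 34861207 to 34864956) and Atf3 (chromosome 1, 191170296 to 191183333) had no unique peak in their windows. At Egr1 the nearest CD137 peak was 129 kb away and the nearest PDGFRα peak 225 kb. At Atf3 both were just outside, a PDGFRα peak of 1551 bp at 54.9 kb and a CD137 peak of 1242 bp at 56.4 kb, both intergenic. Just inside the limit was the PDGFRα peak at 49.0 kb from Jun, and other peaks just outside were CD137 peaks 55.2 kb from Junb and 55.6 kb from Nr4a1. Because the lists hold unique peaks only, a member without one may be open in both libraries or in neither.

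In number, the peaks near the members were divided between the libraries much as peaks near other genes were. At least 1 peak of either library lay within 50 kb of 8 of the 10 members, against 65.1% of all protein-coding genes. A CD137 peak was near 7 (49.5% of all genes), a PDGFRα peak near 5 (40.4%) and peaks of both near 4 (24.8%). The CD137 share of the 22 peaks was 63.6% (40.7 to 82.8%), beside 59.4% over all pairs of gene and peak within 50 kb. The median member had 2 peaks, and the median protein-coding gene had 1. Ier2 carried much of the count. Without it the CD137 number was 9 and the PDGFRα number 7, a share of 56.3%.

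The peaks near the members were wide in both libraries, for CD137 mostly in the windows of Ier2 and Nr4a1. Of the 22, 12 measured 2 kb or more, 54.5% (32.2 to 75.6%), beside 5.15% of both whole lists and 5.95% of the 16824 peaks within 50 kb of any protein-coding gene. They were 7 of 14 CD137 peaks and 5 of 8 PDGFRα peaks, where the whole lists had 4.94% and 5.52%. The median width was 1897 bp for the CD137 peaks, with a range of 1024 to 7857 bp, and 2088 bp for the PDGFRα peaks, with a range of 1076 to 5339 bp. The medians of the whole lists were 1221 and 1237 bp. Wide peaks are more frequent in some classes, for instance 11.8% of CD137 up5k peaks against 3.03% of CD137 intergenic ones. If each class had kept the share of its list, 1.8 of the 22 peaks would have been 2 kb or wider. The widths at Ier2 and Nr4a1 were known when the genes were chosen, and peaks in the same window are not independent. The shares and intervals for width are therefore a description and no test of enrichment. By gene, 5 of 10 members had such a peak within 50 kb, against 9.54% of all genes. For CD137 peaks the number was 4 (5.78% of all genes), for PDGFRα peaks 4 (4.36%), and 3, Ier2, Nr4a1 and Jun, had wide peaks of both (0.594%). Without Ier2 and Nr4a1, 5 of 12 peaks were as wide, 41.7% (15.2 to 72.3%), and the median of the 12 was 1438 bp. By library, 2 of 6 CD137 peaks were then as wide, with a median of 1328 bp over the 6, near that of the whole CD137 list. For PDGFRα it was 3 of 6, with a median of 1714 bp. Within 5 kb, 3 members had a CD137 peak of this width and 1, Nr4a3, a PDGFRα peak, against 2.52% and 1.61% of all genes. Of the 12, 5 had another protein-coding gene nearer than the member. The windows of Ier2 and Junb, which lie on the same chromosome, held 6 and 9 protein-coding genes.

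**Figure D3:**
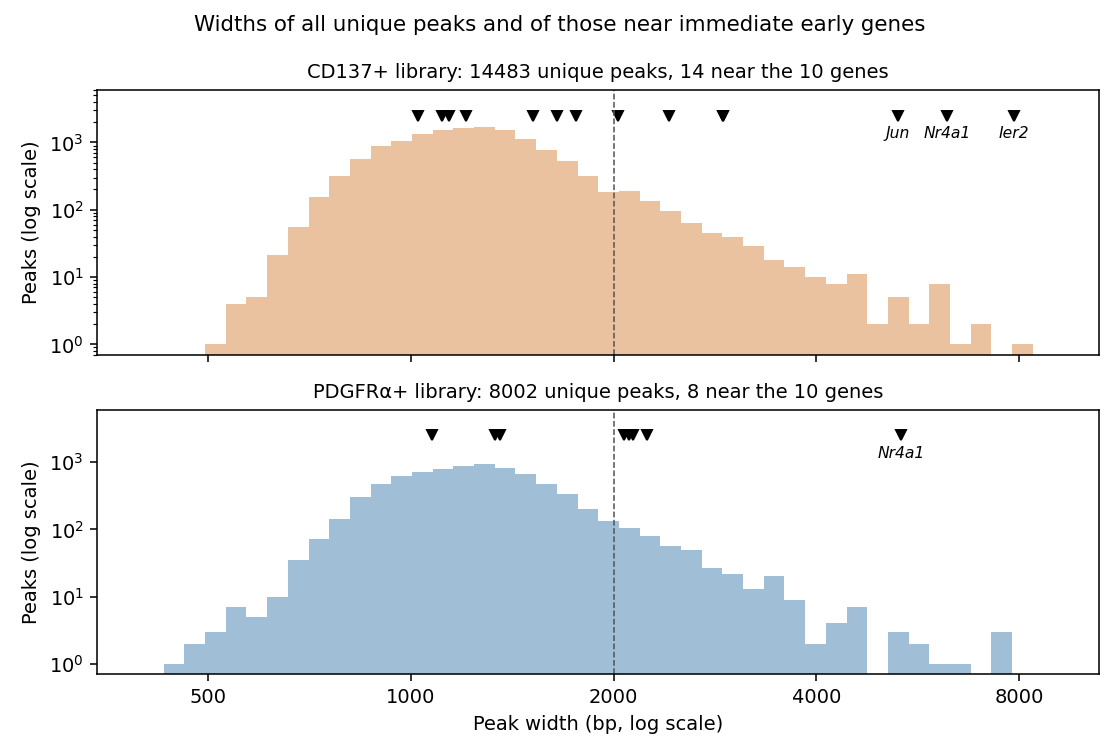
Histograms of the widths in bp (log scale) of all CD137 unique peaks (top) and all PDGFRα unique peaks (bottom), with the number of peaks on a log scale, triangles for the peaks near the 10 members and a dashed line at 2 kb. Triangles lie to the right of the line for 7 of 14 CD137 and 5 of 8 PDGFRα peaks, and those beyond 5 kb are named.

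Up5k peaks were listed in the CD137 library and down5k peaks in the PDGFRα library, with intervals that overlap, and the difference was not tested. Of the 14 CD137 peaks, 7 were up5k (interval 23.0 to 77.0%), and none was down5k (0 to 23.2%). Of the 8 PDGFRα peaks, none was up5k (0 to 36.9%) and 4 were down5k (15.7 to 84.3%). Among peaks within 50 kb of any protein-coding gene, up5k made up 11.2% of the CD137 and 13.4% of the PDGFRα peaks, and down5k 9.27% and 9.01%. The 4 CD137 peaks centred in a member all had the class up5k, which at Jun appears to refer to Junos. The other 3 CD137 up5k peaks and the 4 PDGFRα down5k peaks were centred outside the members, so their class refers to other genes. Without Ier2 and Nr4a1, 2 of 6 CD137 peaks were up5k and 2 of 6 PDGFRα peaks were down5k. By gene, 4 members had a CD137 up5k peak within 50 kb (13.8% of all genes) and none a PDGFRα one (11.9%), while none had a CD137 down5k peak (10.6%) and 4 had a PDGFRα one (7.05%). With 10 members, the absence of PDGFRα up5k peaks and of CD137 down5k peaks is near the share of all genes.

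Related genes from lists of the same pathway were read in the same way, and neighbouring genes in them can share a peak. Of 17 other AP-1 and ATF genes, 9 had a CD137 peak in or within 5 kb and none had a PDGFRα peak there, against 21.3% and 16.5% of all genes. The 50 kb windows held 27 CD137 and 7 PDGFRα peaks. The most were at Atf6, a sensor of unfolded protein (4 CD137 and 2 PDGFRα), Atf2 and Fosb (4 and 0 each) and Fosl1 (2 and 1), with Maf (3 and 0) equal to Fosl1 in total. Of 43 other immediate early genes, 9 had a CD137 peak within 5 kb and 3 a PDGFRα peak, and within 50 kb they had 58 and 28 peaks. The most were at the cytokine signalling inhibitor gene Socs3 (5 and 1), the antiproliferative gene Btg2 (5 and 0), the chemokine gene Ccl2 (3 and 2) and the cyclooxygenase gene Ptgs2 (5 and 0). The share of genes with a peak within 5 kb was thus above that of all genes in the AP-1 list for CD137 and near or below it in the other list.

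Wide peaks within 5 kb of these genes came from the CD137 library more often than from the PDGFRα library, and less clearly so within 50 kb. A CD137 peak of 2 kb or wider lay within 5 kb of 3 of the 17 AP-1 and ATF genes and 7 of the 43 immediate early genes, against 2.52% of all genes. A PDGFRα peak of that width lay at 0 and 2, against 1.61%. Within 50 kb the AP-1 and ATF genes had 5 CD137 and 1 PDGFRα peaks of that width, and the immediate early genes had 9 and 6, at 8 and 6 genes. In the whole lists, 715 of the 1157 peaks of that width were CD137 peaks. The following genes are named after their values were seen. The AP-1 and ATF genes were Jund (6195 bp), Fosb (4456 bp) and Atf4 (3203 bp). The CD137 immediate early genes were Socs3 (4483 bp), Btg2 (4135 bp), Nfkbiz (3901 bp), Zfp36 (3754 bp), Gadd45b (3723 bp), Klf6 (3661 bp) and Sik1 (3294 bp), and the PDGFRα ones were Myc (2566 bp) and Ccl2 (2161 bp). The RefSeq starts of Fosb, Jund, Atf4, Btg2, Gadd45b and Socs3 lay in CD137 peaks, and of the 12 and 31 starts known in these lists none lay in a PDGFRα peak. Over all genes, 2.88% had a start in a CD137 peak and 1.78% in a PDGFRα peak. The absence of PDGFRα peaks at these starts is therefore near the share of all genes. Among CD137 up5k peaks outside the members, those closest in width to the peak at Ier2 were at the ferritin light chain gene Ftl1 (7144 bp) and at Jund. Around the PDGFRα peak of 5339 bp near Nr4a1, the closest up5k peaks were at H2-Ke6 (5364 bp), Plekhg3 (5788 bp), the TNF receptor gene Tnfrsf1a (4724 bp) and Flrt2 (4697 bp).

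**Figure D4:**
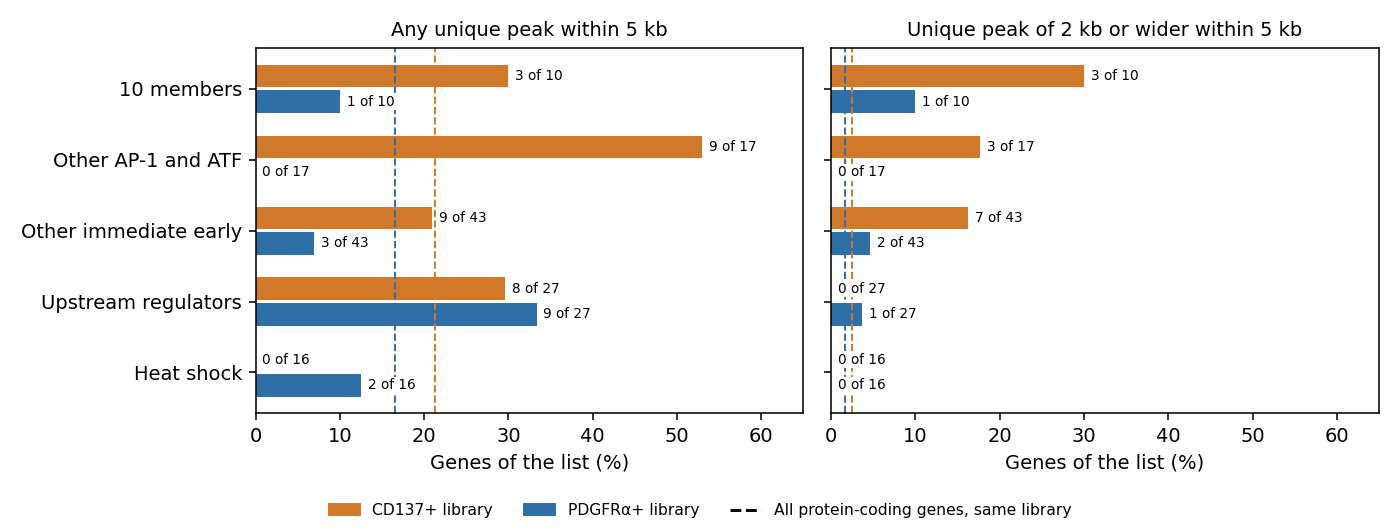
Percentage of the genes of each list with a CD137 (orange) or PDGFRα (blue) unique peak in or within 5 kb, for any peak (left) and for peaks of 2 kb or wider (right), with counts beside the bars and dashed lines for all protein-coding genes. CD137 bars are longer than PDGFRα bars for the members and for both lists of related genes, and no heat shock gene has a CD137 peak.

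Upstream regulators and heat shock genes had peaks of both libraries. Every window includes the gene span, so a longer gene has more room for peaks. Gene length was not taken into account for any list. Of 27 upstream regulators, 12 had a peak of either library within 5 kb, a share not counted over all genes, with 14 CD137 and 12 PDGFRα peaks. Both libraries were represented at 5 of these genes, the CD137 library alone at 3 and the PDGFRα library alone at 4. The share of the 27 with a PDGFRα peak was thus above the 16.5% of all genes. The share with a CD137 peak was also above that of all genes, 21.3%, and neither difference was tested. The only peak of 2 kb or wider within 5 kb was a PDGFRα peak at Mef2d (3009 bp), named after its value was seen. That no CD137 peak of this width lay within 5 kb of the 27 genes is near the 2.52% of all genes. The most peaks within 50 kb were at the serum response factor coactivator genes Mrtfa (2 CD137 and 4 PDGFRα) and Mrtfb (4 and 1), the CREB coactivator gene Crtc3 (3 and 1) and the protein kinase A gene Prkacb (3 and 1), and the kinase gene Rps6ka5 (3 and 1) tied with these. Of 16 heat shock genes, which are also induced in cell isolation, none had a CD137 peak within 5 kb, against 21.3% of all genes. A PDGFRα peak lay within 5 kb of 2 of them, 12.5%, which is near the 16.5% of all genes. Their 50 kb windows held 8 CD137 and 12 PDGFRα peaks, led by the chaperone genes Hsph1 (2 and 2), Dnajb1 (2 and 1), Bag3 (0 and 2) and the heat shock factor gene Hsf1 (1 and 1), with Hsp90ab1 (1 and 1) and Hspa1a (0 and 2) equal in total to the last pair. None of the 16 had a peak of 2 kb or wider within 5 kb, which is near the share of all genes (2.52% CD137 and 1.61% PDGFRα). Within 50 kb, 4 of the 16 had such a peak, 25% against 9.54% of all genes, with 3 CD137 and 2 PDGFRα peaks. The labels place culture and differentiation between isolation and the assay, and the part of isolation stress in the peaks at Ier2, Nr4a1 and Jun was not tested.

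Markers of the labelled cells and of others were counted within 5 kb. Over all protein-coding genes, 21.3% had a CD137 peak and 16.5% a PDGFRα peak there, and the share with a peak of either library was not counted. At 5 of 8 adipocyte markers there were 6 CD137 and 3 PDGFRα peaks, with CD137 peaks alone at 2 genes, PDGFRα peaks alone at 2 and both at 1. Stromal progenitor markers had 2 CD137 and 3 PDGFRα peaks, with CD137 peaks alone at 2 of 8 genes and PDGFRα peaks alone at 3. The genes of the markers used to select the cells had no more peaks of their own library than of the other in either window. Tnfrsf9, the CD137 gene, had no CD137 peak and 1 PDGFRα peak within 5 kb, which held its RefSeq start. Within 50 kb it had 1 peak of each library. Pdgfra had no peak of either library within 5 kb, and 1 CD137 peak and no PDGFRα peak within 50 kb. A gene open in both libraries would be in neither list, so these counts do not check the labels. Of 5 endothelial markers, 1 had a CD137 peak and 2 had PDGFRα peaks, 5 in number. Mesothelial markers had no CD137 peak and 2 PDGFRα peaks, at 1 of 4 genes. Early embryo markers had 1 CD137 peak and no PDGFRα peak, at 1 of 5 genes, and immune markers had none at 5 genes. The part of other cell types in the results on the members was not tested.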

How the data were processed

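ATAC-seq peaks were deposited as 1 list per library. Per the file headers, each row holds the position of a peak, a place class and, where there is one, an Ensembl ID. Build mm10 and CASAVA 1.8 appear in the submitters' processing notes. Which aligner, peak caller and threshold were used, and what made a peak unique, is not given in the sources used. No CD137 peak overlapped a PDGFRα peak. Depth cannot be compared, so numbers of peaks also carry the depth and threshold of each library.

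Width is end minus start, and whether starts count from 0 or 1 is not given. Gene spans and promoters came from RefSeq tables of GRCm38.p6. Of peaks classed intron, 97.4% (CD137) and 97.2% (PDGFRα) had their centre inside a RefSeq gene of any kind. Shifted by 3 Mb, 49.7% and 50.1% did. All 10 symbols matched, and 8 have a promoter sequence. The same counts were made at 21887 protein-coding genes. Members and gene lists were chosen with earlier results of these data known. Named outside the members are up to 4 genes per list with the most peaks, the genes nearest in width to the widest peaks, and genes closer to a peak than the member. The assignment of peaks to the 50 kb window and the search for sequence elements were tested on simulated data, and the other steps were not. Python 3.11.15, pandas 2.3.3, numpy 2.4.6, scipy 1.17.1 and matplotlib 3.10.9 were used. Alternatives changed the window, the assignment, the width limit and the peaks used.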

Additional observations from a re-analysis of the deposited data

How the results depend on the processing

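No paired analysis was possible because each group has a single library, and leaving out replicates could not be done either. Of 56 alternative values from 12 settings, 40 stayed within the interval of the reported value or within 1.5 times its count. The CD137 share stayed between 50 and 80% in all settings run for it, within its interval. Counts followed the window. There were 4 CD137 peaks and 1 PDGFRα peak within 5 kb, 7 and 5 within 20 kb, and 23 and 13 within 100 kb. Within 5 kb the up5k share was 80%, the median width 5283 bp and the number of peaks of 2 kb or wider 5. Peaks whose nearest protein-coding gene is the member numbered 6 CD137 and 4 PDGFRα, 7 of them 2 kb or wider. With 3 kb as the limit, 4 peaks were wide, against 0.930% of both lists. Chosen after seeing the data, leaving out Ier2 gave 9 CD137 peaks, and leaving out Ier2 and Nr4a1 gave 6, with 5 peaks of 2 kb or wider. A smaller or larger window, fewer genes or a stricter limit changes these numbers by construction. The unknown depth limits any reading of absent peaks.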
